A study of Mus musculus with 222 samples.

Results

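The immediate early genes described here are 10 genes that cells switch on within minutes of a stimulus: Fos, Fosb, Jun, Junb, Atf3, Egr1, Egr2, Ier2, Dusp1 and Zfp36. They were chosen by symbol, and all 10 were found among the 24391 gene symbols of each count table. Immediate early genes are induced without new protein synthesis, mostly through MAP kinase signalling to factors already bound at their promoters, and their RNAs are short-lived. FOS, FOSB, JUN, JUNB and ATF3 proteins pair through leucine zippers as AP-1 and related dimers, EGR1 and EGR2 are zinc finger transcription factors, and DUSP1 and ZFP36 act back on the response, the first by removing phosphate from MAP kinases and the second by binding AU-rich RNAs for decay. The same genes are also known to be induced when tissue is dissociated with enzymes, which bears on cells that are sorted from digested gonads.

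The data were RNA-seq counts of mouse primordial germ cells (PGCs), from which sperm and eggs derive, sorted by GFP from gonads digested in trypsin. The Eed gene encodes part of the Polycomb complex that places repressive methylation on histone H3, and the comparison addresses what its loss does to PGCs. The ECKO groups are labelled Eed -/- and the Control groups wild type. Per the labels' protocols, dams carried the OG reporter and were Eed fl/fl, sires carried BC and were Eed fl/+, and the strain is given as C57BL/6;129S1/SvlmJ, so that every embryo inherited a floxed Eed allele from its dam, Controls included. OG is an Oct4-GFP reporter and BC a Blimp1-Cre driver, which is active in PGCs from their specification. Bulk groups were E11.5 XY (4 ECKO, 4 Control), E11.5 XX (4 ECKO, 3 Control) and E13.5 XY (3 ECKO, 4 Control). Single cells came from E12.5 embryos, 2 XX ECKO, 2 XX Control, 2 XY ECKO and 2 XY Control, with 24 cells of each. The labels give neither the embryo or pool behind a bulk library nor a date, a sort order or a time on ice, so p-values measure the spread between labelled libraries, and bulk libraries cannot tell fewer expressing cells from less RNA per cell.

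Bulk libraries held 8607927 to 14974853 counts at E11.5 XY, 415291 to 7559310 at E11.5 XX and 4903492 to 12425911 at E13.5 XY, and 127 of 192 single cells were kept, with a median of 1310080 counts. In E11.5 XX Control 1, the shallowest library, 3 counts are worth 7.55 CPM, the unit of counts scaled to library size. The germ cell label held in bulk: the 12 germ cell markers summed to 1720 to 2541 CPM in E13.5 ECKO libraries, 2908 to 3661 CPM in E13.5 Controls, and 1537 to 2911 CPM at E11.5. Of the markers of other cells, the 15 interstitial ones stood apart in XY ECKO 4 (525.6 CPM) and XX ECKO 4 (1428 CPM) at E11.5, against 56.2 to 87.3 CPM in the other XY ECKO libraries, 64.0 to 192 CPM in the other XX ECKO libraries and 45.7 to 174 CPM in Controls of both sexes. Other lists had single high libraries too: blood and macrophage markers summed to 182.5 CPM in E11.5 XY Control 1, against 2.19 to 3.88 CPM in the other 3, and supporting cell markers to 221.1 CPM in E13.5 Control 3, against 13.3 to 81.2 CPM in the other 3. Endothelial markers summed to 30.1 to 76.7 CPM in E13.5 ECKO libraries and 149.9 to 221.1 CPM in E13.5 Controls, and to 129.2 to 489 CPM at E11.5. E11.5 XX ECKO 4 was also the highest XX ECKO library for supporting cell markers (220.5 CPM, against 43.1 to 93.9 CPM in the other 3) and endothelial markers (489 CPM, against 129.2 to 170.1 CPM). The part of these cells in the member values was not tested. Eed itself, which the cross deletes, stood below every Control of its table in each ECKO library, with log2 fold changes of -1.62 (SE 0.29, adjusted p = 0.0118) at E11.5 XY, -1.88 (SE 0.35, adjusted p = 0.0567) at E11.5 XX and -3.33 (SE 0.56, adjusted p = 0.0107) at E13.5 XY. In the E12.5 embryos Eed stood at 13.99 and 21.99 CPM in XX ECKO against 59.2 and 62.1 CPM in XX Controls, and at 21.7 and 7.10 CPM in XY ECKO against 40.7 and 52.6 CPM in XY Controls.

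Promoters of Fos, Fosb and Dusp1 are shown because the E11.5 XY results below turn on them: Fos was called higher in ECKO cells, Fosb lay at the threshold, and Dusp1 was not called. Each line gives the 250 bases before the annotated start from RefSeq (build GRCm38.p6, Fos on the plus strand at chr12:85473640-85473889, Fosb on the minus strand at chr7:19310046-19310295, Dusp1 on the minus strand at chr17:26508473-26508722). Capitals mark TGACG, the core of the site bound by CREB and ATF proteins, read on either strand, and TATAAA, the TATA box.
Fos: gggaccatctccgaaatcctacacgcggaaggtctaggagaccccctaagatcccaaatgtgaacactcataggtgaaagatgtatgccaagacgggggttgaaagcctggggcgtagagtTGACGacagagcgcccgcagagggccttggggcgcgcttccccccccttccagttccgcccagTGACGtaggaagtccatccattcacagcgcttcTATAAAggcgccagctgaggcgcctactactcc
Fosb: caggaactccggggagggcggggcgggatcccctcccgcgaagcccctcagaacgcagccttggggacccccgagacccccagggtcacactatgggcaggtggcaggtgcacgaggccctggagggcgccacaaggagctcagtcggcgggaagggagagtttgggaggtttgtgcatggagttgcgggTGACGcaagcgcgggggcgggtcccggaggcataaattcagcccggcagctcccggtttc
Dusp1: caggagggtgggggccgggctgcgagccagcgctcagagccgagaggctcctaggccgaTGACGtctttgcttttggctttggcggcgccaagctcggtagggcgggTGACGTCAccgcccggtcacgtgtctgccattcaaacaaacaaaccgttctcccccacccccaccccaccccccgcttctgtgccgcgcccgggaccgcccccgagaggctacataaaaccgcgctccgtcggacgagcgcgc
TGACG stood at -129 and -66 in Fos, at -60 in Fosb, and at -191 and -143 in Dusp1, where the copy at -143 overlaps 1 on the opposite strand at -140. TATAAA was found in Fos alone of the matched members, at -33. Of the 8 members with a promoter in the table (Ier2 and Egr1 were not matched), 6 held TGACG (Fos, Fosb, Junb, Egr2, Atf3 and Dusp1), against 17.8% of all 32851 promoters of the same length. Egr2 and Zfp36 held a CArG box, the serum response factor site, against 1.47% of all promoters, and Fosb and Zfp36 held GCGNGGGCG, the EGR site, against 4.70%. The shares of all promoters count each annotated start. Counted that way, 8 of 12 member promoters held TGACG, 5 of 12 a CArG box and 2 of 12 GCGNGGGCG. Both strands were searched, a gene with several annotated starts counts once among the 8 members, and a match is a run of letters, not a shown binding site. Bases beyond these 250 were not searched, so a gene without a match here may hold the site elsewhere.

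In male germ cells at E11.5, ECKO libraries held more Fos and Egr1 RNA than Control libraries, while the groups overlapped for Ier2, Dusp1, Junb and Zfp36, none of which was called. Of the 9 members that passed the filter on low counts, 2 were called higher in ECKO and 0 lower, against 2.13% of all genes called either way and 1.51% called higher. Values are CPM, scaled within each table, and are compared between libraries of a gene, never between genes, since CPM is not per length. Fos, the AP-1 subunit that dimerises with JUN proteins, stood at 49.4, 17.2, 27.4 and 41.2 CPM in the 4 ECKO libraries, against 5.29, 4.76, 1.81 and 4.42 CPM in the 4 Controls. Every ECKO library lay above every Control, and the log2 fold change was 3.06 (SE 0.46, adjusted p = 0.00353). Egr1, an early growth response transcription factor, stood at 249.1, 207, 152 and 325 CPM in ECKO libraries, against 51.3, 70.6, 33.5 and 26.7 CPM in Controls. Again no library overlapped, and the log2 fold change was 2.36 (SE 0.29, adjusted p = 0.000662). Groups lay fully apart with ECKO above in 5.15% of all genes tested.

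**Figure D1:**
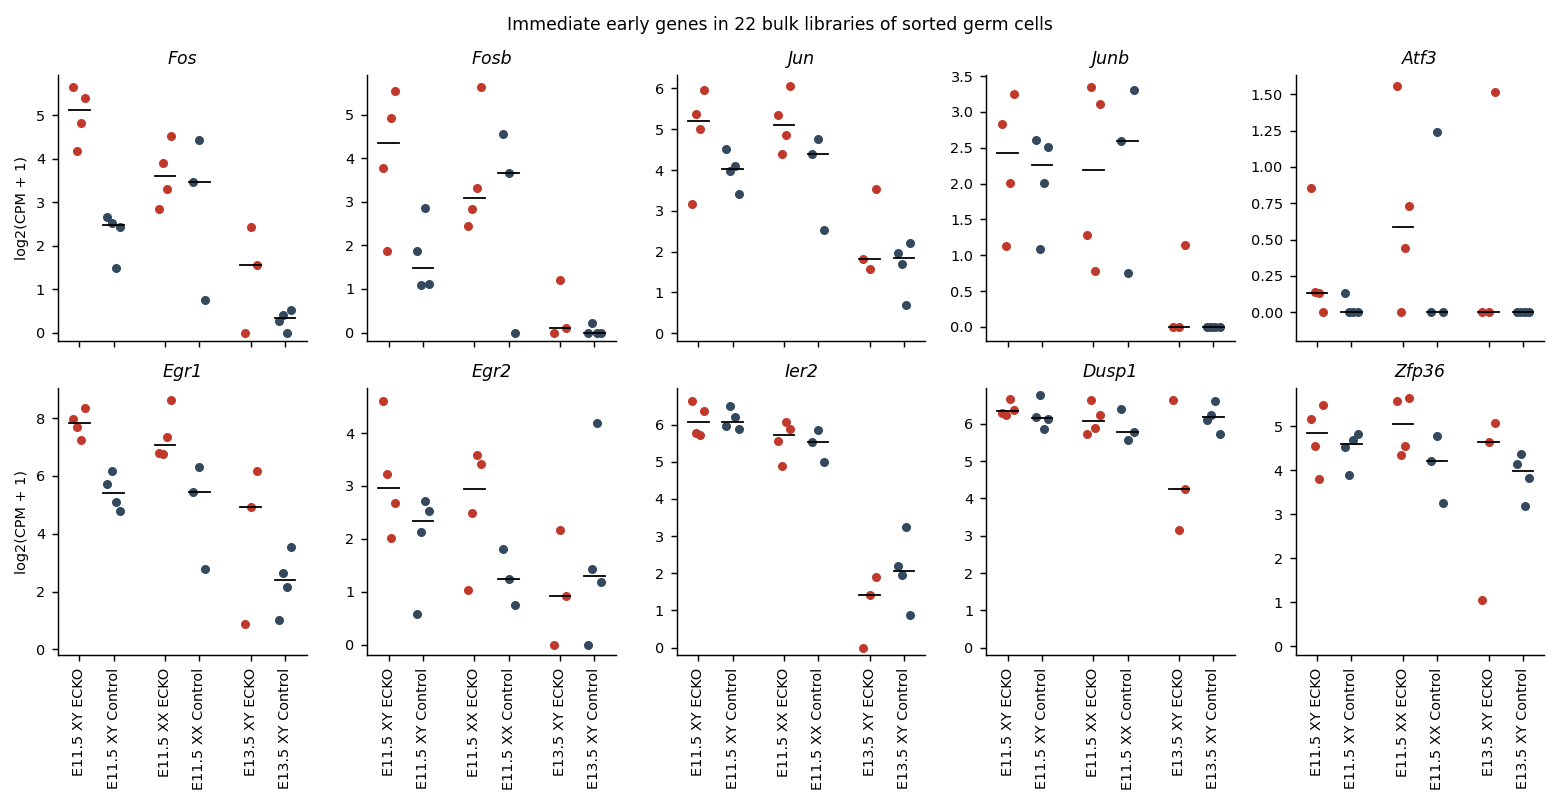
Level of each of the 10 genes in the 22 bulk libraries, as log2(CPM + 1) with CPM scaled within each table; each panel is a gene with its own axis, points are libraries (red ECKO, dark blue Control) and black lines are group medians. Fos and Egr1 are apart between the 4 ECKO and the 4 Control libraries at E11.5 XY, and Ier2, Fos and Junb are lower in the E13.5 libraries than in most E11.5 libraries.

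The other AP-1 genes of E11.5 XY were less even between libraries. Fosb, a FOS paralogue with a slower course, stood at 12.6, 2.68, 29.2 and 45.3 CPM in ECKO libraries and 2.65, 1.13, 6.27 and 1.16 CPM in Controls (log2 fold change 2.99, SE 0.76, adjusted p = 0.0519). ECKO 2 lay within the Controls, and the difference fell on either side of the threshold by setting, with an adjusted p of 0.00107 in DESeq2 and 0.160 without ECKO 4. Jun, the partner of FOS proteins, stood at 7.97, 40.8, 31.0 and 61.3 CPM in ECKO libraries and 21.96, 14.6, 16.2 and 9.73 CPM in Controls (1.17, SE 0.46, adjusted p = 0.218). ECKO 1, which had the highest Fos, was the lowest of all 8 libraries in Jun, and without it the log2 fold change of Jun was 1.51 with an adjusted p of 0.0431, whereas without ECKO 4 it was 0.77. Junb, a JUN paralogue, stood at 6.12, 1.19, 3.03 and 8.49 CPM in ECKO libraries and 5.10, 1.13, 3.04 and 4.69 CPM in Controls (0.43, SE 0.81, adjusted p = 0.851). Atf3, a stress-induced ATF family repressor, had 10, 1, 1 and 0 counts in ECKO libraries and 1, 0, 0 and 0 in Controls, too few to test.

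Of the remaining members at E11.5 XY, none passed. Egr2 stood at 23.5, 8.34, 3.03 and 5.41 CPM in ECKO libraries and 0.490, 3.40, 5.56 and 4.76 CPM in Controls (log2 fold change 1.5, SE 0.79, adjusted p = 0.371). Dusp1, the MAP kinase phosphatase, stood at 77.9, 74.7, 101 and 82.0 CPM in ECKO libraries and 71.0, 108, 57.6 and 69.2 CPM in Controls (0.14, SE 0.22, adjusted p = 0.816). Ier2, a nuclear protein gene of the same response, stood at 98.9, 54.0, 51.9 and 81.3 CPM in ECKO libraries and 61.1, 90.2, 72.3 and 57.7 CPM in Controls (0.03, SE 0.24, adjusted p = 0.975). The groups of both genes overlapped across most of their range. Zfp36, the RNA decay factor, stood at 34.9, 22.3, 13.01 and 43.5 CPM in ECKO libraries and 21.96, 13.9, 24.6 and 27.5 CPM in Controls (0.37, SE 0.37, adjusted p = 0.690). The median log2 fold change of the 9 tested members was 1.17, against 0.00 over all genes tested, and that of each was above 0.

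**Figure D2:**
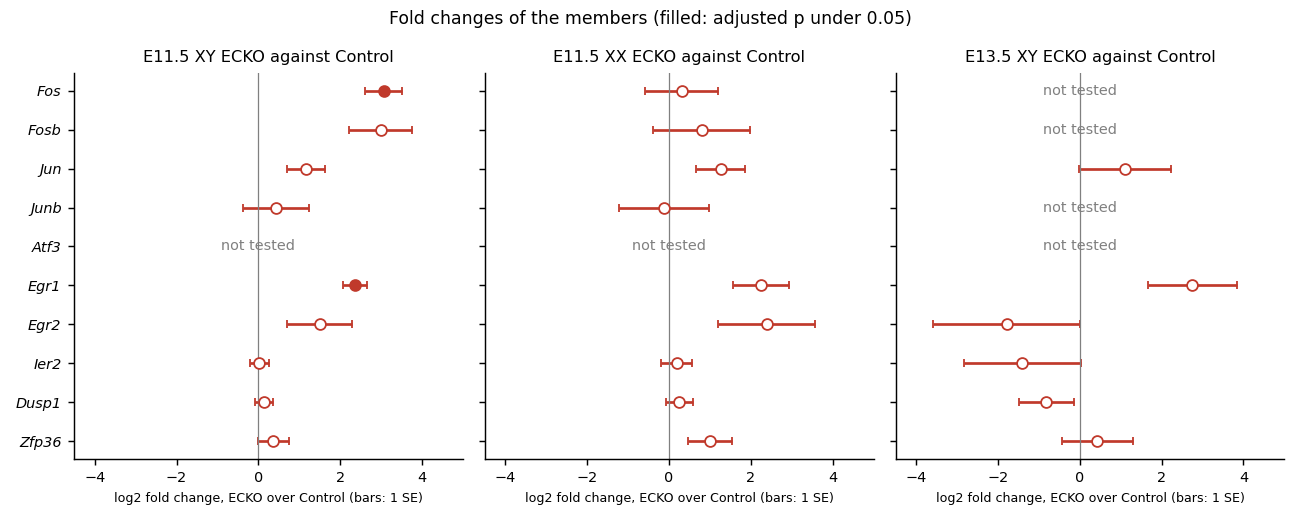
Log2 fold change of each member, ECKO over Control, in the 3 bulk comparisons; points are edgeR estimates, bars are 1 SE, and filled points have an adjusted p under 0.05. Fos (3.06) and Egr1 (2.36) at E11.5 XY are the filled points, and Egr1 lies at 2.26 and 2.75 in the other 2 comparisons without passing.

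Taken library by library, the E11.5 XY values showed no single library behind Fos and Egr1. Both stayed called in 8 of 8 fits that left out 1 library, with log2 fold changes of 2.81 to 3.28 for Fos and 2.17 to 2.66 for Egr1. ECKO 4, with the highest interstitial sum, was the highest library for Egr1 and the second highest for Fos. Without it the log2 fold changes were 2.95 for Fos (adjusted p = 0.0066) and 2.17 for Egr1 (adjusted p = 0.00117). ECKO 1, the highest library for Fos, had an interstitial sum of 56.2 CPM, with 2 of the 15 markers at 0, and Control 1 had 161 CPM. In ECKO 4 Cyp17a1 was the 1 marker at 0. Over the 9 interstitial markers tested the median log2 fold change was 2.05, with 0 called. Both calls ended when all 22 bulk libraries shared 1 estimate of the spread, with adjusted p-values of 0.203 for Fos and 0.212 for Egr1 at log2 fold changes of 3.04 and 2.34, and the cause was not tested. The 13 heat shock genes, another group that answers to handling, summed to 8298 to 9213 CPM in ECKO libraries and 8471 to 9549 CPM in Controls, and 0 of 13 were called. The part of handling in the Fos and Egr1 values was not tested.

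**Figure D3:**
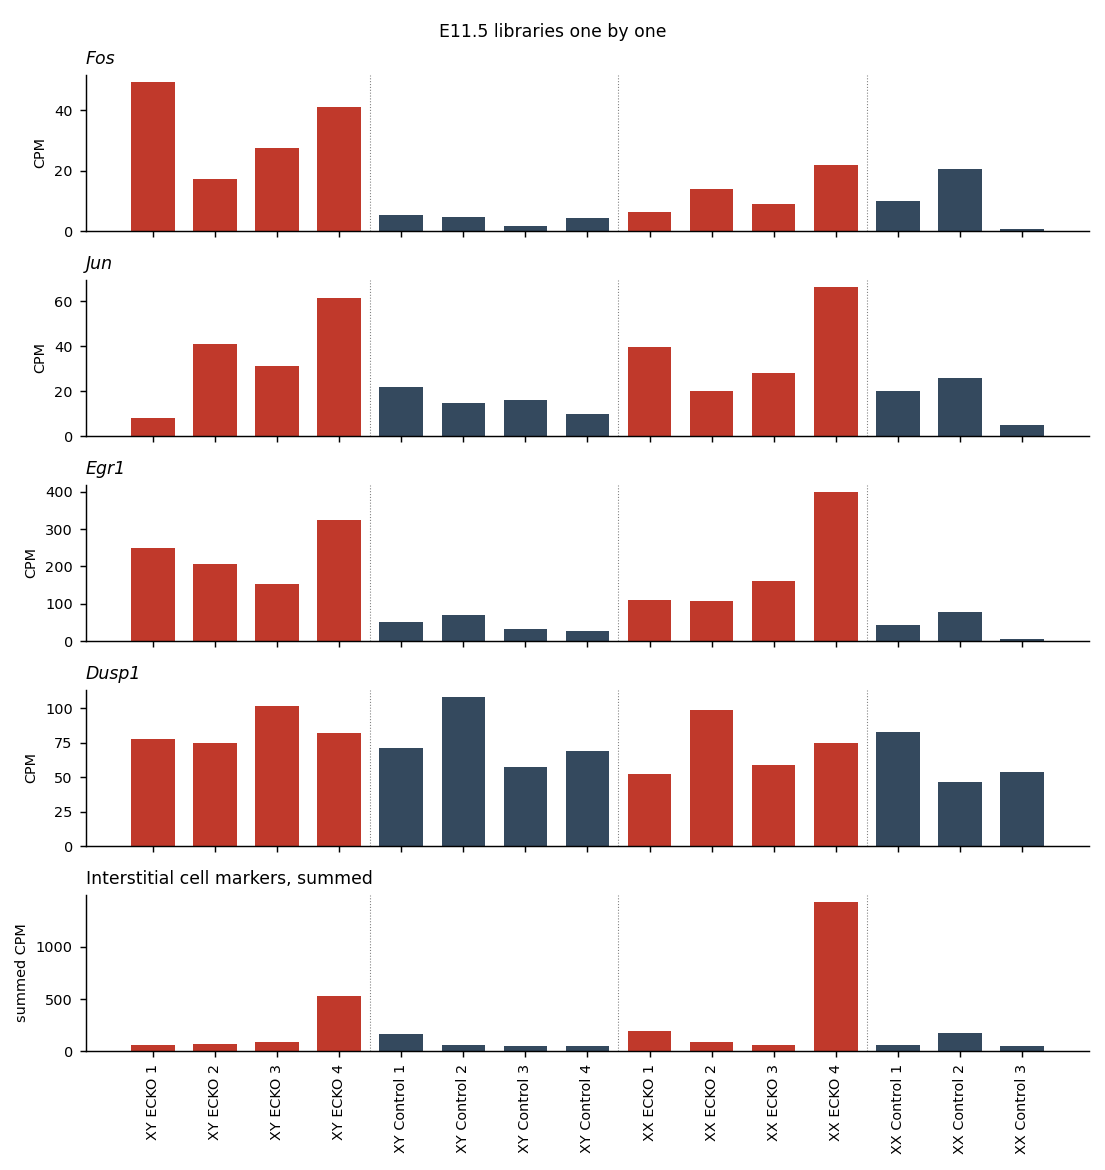
CPM of Fos, Jun, Egr1 and Dusp1 and the summed CPM of 15 interstitial cell markers in each of the 15 E11.5 libraries, as bars from 0 (red ECKO, dark blue Control). The 4 XY ECKO libraries exceed the 4 XY Controls in Fos and Egr1, and the interstitial sum is high in XY ECKO 4 (525.6 CPM) and XX ECKO 4 (1428 CPM).

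Around these members, few genes of related lists were called at E11.5 XY. Of 25 other immediate early genes tested, Myc alone rose, at 9.90, 10.3, 20.05 and 21.98 CPM in ECKO libraries against 1.57, 0.227, 0.517 and 1.84 CPM in Controls (log2 fold change 3.88, SE 0.72, adjusted p = 0.0127). No Myc value of an ECKO library overlapped the Controls. Of 16 ERK phosphatases and feedback genes, Dusp16, a phosphatase of JNK and p38, rose (2.51, SE 0.56, adjusted p = 0.0291), and Dusp4, a nuclear MAP kinase phosphatase, fell (-1.12, SE 0.26, adjusted p = 0.0332). Dusp16 stood at 18.7 to 24.6 CPM in ECKO libraries and 0.711 to 6.00 CPM in Controls, and Dusp4 at 38.0 to 90.9 CPM in ECKO libraries and 99.7 to 150 CPM in Controls. None of 10 other AP-1 and ATF subunits and none of 20 SRF, ETS and CREB factors and MAP kinases was called, with median log2 fold changes of -0.11 and -0.10 against 0.00 over all genes. Of the marker lists, Aard of the supporting cell list (-1.38, adjusted p = 0.0146) and Pecam1 of the endothelial list (-0.79, adjusted p = 0.0374) were lower in ECKO. Which cells gave the Aard and Pecam1 RNA was not tested. Of 11 germ cell markers 0 were called.

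In female germ cells at E11.5 no member was called. Of 9 tested members 0 passed, against 0.172% of all genes called, and 1542 of 11058 genes had an unadjusted p under 0.05. Egr1 stood at 111, 108, 160 and 399 CPM in ECKO libraries, against 42.8, 77.8 and 5.79 CPM in Controls (log2 fold change 2.26, SE 0.68, adjusted p = 0.179). All ECKO libraries lay above all Controls, as in 7.51% of all genes, and Egr1 passed when no filter on low counts was used (adjusted p = 0.00456). Its log2 fold change was 1.63 without ECKO 4, the library with the interstitial sum of 1428 CPM (2 of the 15 markers at 0), and 1.61 to 3.54 over all fits without 1 library. Over the 8 interstitial markers tested the median log2 fold change was 2.86, with 0 called, and beyond the fit without ECKO 4 the part of interstitial RNA in the Egr1 value was not tested.

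Fos did not separate the female groups, at 6.23, 13.8, 8.93 and 21.9 CPM in XX ECKO libraries and 10.1, 20.5 and 0.681 CPM in XX Controls (log2 fold change 0.31, SE 0.89, adjusted p = 0.913). The groups overlapped, and the log2 fold change lay between -0.35 and 1.76 when 1 library was left out. Fosb stood at 4.41, 6.15, 8.93 and 48.7 CPM in ECKO libraries and 22.7, 11.6 and 0 CPM in Controls (0.80, SE 1.18, adjusted p = 0.811), and its direction turned without ECKO 4 (-0.64). Jun stood at 39.8, 20.001, 27.9 and 66.3 CPM in ECKO libraries and 20.1, 25.9 and 4.76 CPM in Controls (1.26, SE 0.61, adjusted p = 0.376). Junb ranged from 0.715 to 9.23 CPM in ECKO libraries and 0.682 to 8.85 CPM in Controls, and Atf3 had at most 15 counts in any library. The groups overlapped for each of these AP-1 genes.

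Egr2 ranged from 1.04 to 11.1 CPM in XX ECKO libraries and 0.681 to 2.52 CPM in XX Controls (log2 fold change 2.38, SE 1.18, adjusted p = 0.381). Zfp36 stood at 46.4, 19.2, 22.5 and 48.7 CPM in ECKO libraries and 17.6, 26.6 and 8.51 CPM in Controls (0.99, SE 0.53, adjusted p = 0.433). Ier2 ranged from 28.5 to 66.1 CPM in ECKO libraries and 30.6 to 56.6 CPM in Controls, and Dusp1 from 52.1 to 98.5 CPM in ECKO libraries and 46.4 to 83.1 CPM in Controls. The median log2 fold change of the tested members was 0.80, against 0.03 over all genes. No gene of the related lists or of the marker lists was called.

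Whether the change in ECKO cells differed between the sexes was tested directly. For Fos the difference of log2 fold changes, XX minus XY, was -2.71 (SE 0.96), with an unadjusted p of 0.00963 and an adjusted p of 0.900 over 14185 genes. For Egr1 it was -0.07 (SE 0.72, adjusted p = 0.999). The test called 0 members and 0 genes in edgeR, with 747 genes at an unadjusted p under 0.05 and 1 gene called in DESeq2.

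In male germ cells at E13.5 most AP-1 members were near the detection limit, and no member was called. Fos stood at 0, 4.36 and 1.95 CPM in ECKO libraries and 0.202, 0.319, 0 and 0.422 CPM in Controls. Fosb reached 1.29 CPM in ECKO libraries and 0.160 CPM in Controls. Junb and Atf3 were seen in 1 ECKO library, ECKO 3, at 1.22 and 1.87 CPM, and had 0 counts in the other ECKO libraries and in all 4 Controls. These 4 genes did not pass the filter on low counts. Of the 6 tested members 0 passed, against 4.90% of all genes called, and 2795 genes had an unadjusted p under 0.05. Their median log2 fold change was -0.19, against 0.05 over all genes.

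The 3 ECKO libraries of E13.5 were unlike each other. Egr1 stood at 0.835, 29.1 and 71.0 CPM in ECKO 1, ECKO 2 and ECKO 3, against 1.01, 5.19, 3.43 and 10.6 CPM in Controls (log2 fold change 2.75, SE 1.08, adjusted p = 0.157). ECKO 1 lay below every Control and the other 2 above every Control, and without ECKO 1 the log2 fold change was 3.29 with an adjusted p of 0.0206, while DESeq2 on all 7 libraries gave an adjusted p of 0.0367. Dusp1 went the other way, at 98.5, 7.83 and 18.1 CPM in the ECKO libraries, against 68.2, 74.6, 96.6 and 52.2 CPM in Controls (-0.82, SE 0.68, adjusted p = 0.511). Here ECKO 1 was the highest of all 7 libraries, and without it Dusp1 had a log2 fold change of -2.53 and an adjusted p of 0.00972. ECKO 1 also differed in markers, with a germ cell sum of 2541 CPM against 1720 and 1733 CPM in ECKO 2 and ECKO 3, and an interstitial sum of 93.7 CPM against 283 and 257 CPM (Controls 139 to 184 CPM). Eed RNA was lowest in ECKO 1, at 2.98 CPM, against 12.7 and 10.4 CPM in ECKO 2 and ECKO 3. So the ECKO library with the least Eed was the one without higher Egr1 or lower Dusp1. The part of Eed level in these values was not tested. The interstitial marker Pdgfra was called higher in ECKO (log2 fold change 4.65, SE 1.18, adjusted p = 0.0426), and the part of these cells in the member values was not tested.

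Jun stood at 2.50, 1.98 and 10.6 CPM in E13.5 ECKO libraries and 2.93, 2.24, 0.612 and 3.59 CPM in Controls (log2 fold change 1.11, SE 1.13, adjusted p = 0.600). Zfp36 stood at 1.07, 24.1 and 33.0 CPM in ECKO libraries and 16.6, 19.8, 8.08 and 13.1 CPM in Controls (0.43, SE 0.86, adjusted p = 0.804), again with ECKO 1 lowest and the other 2 highest. Egr2 ranged from 0 to 3.47 CPM in ECKO libraries and 0 to 17.3 CPM in Controls, and Ier2 from 0 to 2.76 CPM in ECKO libraries and 0.845 to 8.57 CPM in Controls. Of 23 other immediate early genes, Egr4, an EGR family factor, alone rose, at 8.23, 33.9 and 38.5 CPM in ECKO libraries and 0.303, 1.04, 0 and 0 CPM in Controls (6.12, SE 1.21, adjusted p = 0.0171). No gene of the AP-1 and ATF, ERK feedback, SRF and MAP kinase or heat shock lists passed. In the fit of all 22 libraries Egr1 (adjusted p = 0.0124), Fos (3.17, adjusted p = 0.0346) and Junb (adjusted p = 0.0467) were called higher in E13.5 ECKO cells. That fit called 2987 genes for E13.5, against 604 in the fit of the E13.5 libraries alone, and the share of all genes tested is not given here. The Junb call rests on 15 counts in ECKO 3, and Fos and Junb had not passed the filter on low counts within E13.5. The change in ECKO cells was not shown to differ between E13.5 and E11.5 for Fos (difference of log2 fold changes 0.15, SE 1.35, adjusted p = 0.966) or Egr1 (0.50, SE 1.02, adjusted p = 0.846), where 1.20% of 14447 genes were called.

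Most members were lower at the later stage. In XY Control cells 6 of 9 tested members were called lower at E13.5 than at E11.5 and 0 higher, against 31.5% of all genes called and 15.7% called lower. Each stage is a table of its own, so stage and table cannot be told apart. Ier2 stood at 3.75, 3.13, 8.93 and 0.855 CPM at E13.5, against 58.6, 85.8, 69.2 and 55.4 CPM at E11.5 (log2 fold change -3.99, SE 0.67, adjusted p = 0.000137). Egr1 stood at 1.07, 5.65, 3.57 and 10.7 CPM at E13.5, against 49.2, 67.1, 32.0 and 25.6 CPM at E11.5 (-3.09, SE 0.76, adjusted p = 0.00366). Fos stood at 0.214, 0.348, 0 and 0.428 CPM at E13.5, against 5.08, 4.53, 1.73 and 4.25 CPM at E11.5 (-3.95, SE 1.03, adjusted p = 0.00547). For all 3 genes every E13.5 library lay below every E11.5 library, as in 20.4% of all genes.

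Jun was also lower at E13.5, at 3.11, 2.44, 0.638 and 3.64 CPM, against 21.1, 13.9, 15.5 and 9.35 CPM at E11.5 (log2 fold change -2.61, SE 0.72, adjusted p = 0.00863). Junb had 0 counts in all 4 E13.5 Controls and 178 counts in the E11.5 Controls, at least 38.5-fold lower with 3 counts in the whole group taken as the floor (adjusted p = 0.0042). Fosb had 2 counts at E13.5 and 151 at E11.5, a ratio of 49.0-fold lower with a 95% counting interval of 13.3 to 408 (adjusted p = 0.00596). Dusp1 did not pass, at 72.2, 81.3, 101 and 52.8 CPM at E13.5 and 68.1, 103, 55.1 and 66.5 CPM at E11.5 (0.07, SE 0.47, adjusted p = 0.926). Zfp36 (-0.47, SE 0.65, adjusted p = 0.617) and Egr2 (0.63, SE 1.27, adjusted p = 0.743) did not pass either. The 6 calls stood in 15 of 15 fits without 1 library. The median of the 9 members was -3.09, also with Fosb and Junb at the values above, against -0.14 over all genes.

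**Figure D4:**
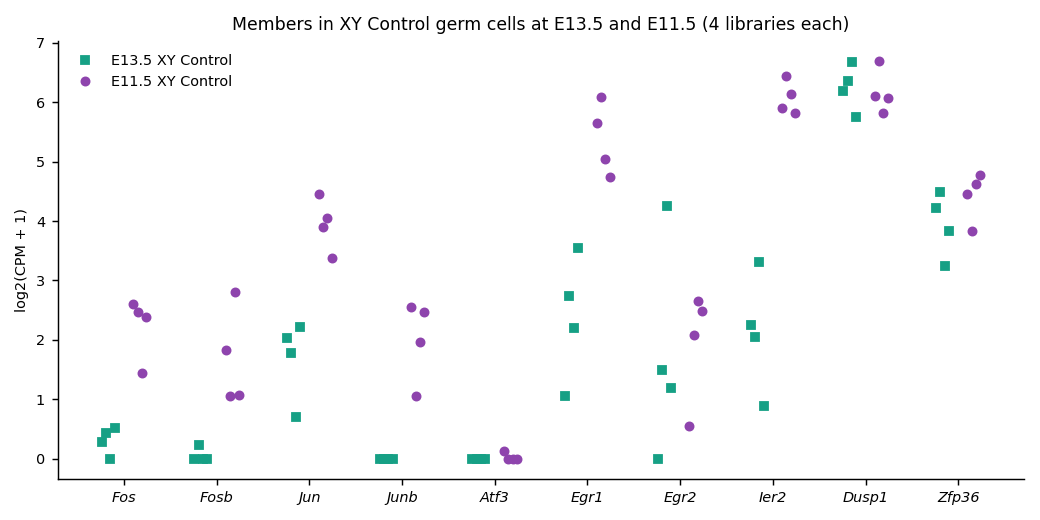
Level of each member in the 4 XY Control libraries at E13.5 (squares) and the 4 at E11.5 (circles), as log2(CPM + 1) from a fit of the 15 XY libraries. Fos, Fosb, Jun, Junb, Egr1 and Ier2 are lower at E13.5 without overlap, whereas Dusp1, Zfp36 and Egr2 overlap.

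Between the stages in XY Controls 31.5% of all genes were called, 15.7% of all genes as lower at E13.5, so shares near these are not results about a list. Of 30 other immediate early genes, 8 were lower at E13.5 and 0 higher, among them Ier5l (log2 fold change -6.53, SE 0.85, adjusted p = 7.4e-06), Ier3 (-5.05), the growth arrest gene Gadd45a (-3.11) and the Kruppel-like factor gene Klf2 (-2.88). Of 11 other AP-1 and ATF subunits, 5 were lower, among them Jdp2 (-6.49) and the small Maf gene Mafg (-1.08), and 2 higher, Atf7 (1.44) and Atf2 (0.92). Of 16 ERK phosphatases and feedback genes, Spry2 (-2.94) and Spry4 (-1.41), inhibitors of receptor tyrosine kinase signalling, were lower and Dusp16 (2.24) was higher. Of 20 SRF, ETS and CREB factors and MAP kinases 2 were lower, among them Mapk3, which encodes ERK1 (-1.29), and 3 were higher, the SRF cofactor gene Mkl2 (1.05), Mapk8 (0.91) and Mapk14 (0.80). Of 13 heat shock genes 5 were higher, led by Dnaja1 (2.75), Hspa8 (2.42) and Hsp90aa1 (2.37), and 2 lower, among them Hspb1 (-4.65). The sum of heat shock genes was 17966 to 23448 CPM in E13.5 Controls and 8471 to 9549 CPM in E11.5 Controls. Ier5l was also the 1 gene of the other immediate early genes whose change in ECKO cells was called more positive at E13.5 than at E11.5 (difference 4.17, SE 1.03, adjusted p = 0.0459).

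Over the 6 bulk groups scaled together, Egr1 had its highest medians in the ECKO groups of E11.5, 214 CPM in XY and 130 CPM in XX, whose ranges overlapped, and lay apart from the next, 39.9 CPM in XX Controls. XX Controls, XY Controls (39.8 CPM), E13.5 ECKO (33.0 CPM) and E13.5 Controls (4.88 CPM) each overlapped the neighbour below. For Fos each group overlapped the next, with medians of 32.1 CPM in E11.5 XY ECKO libraries, 10.8 in XX ECKO, 9.39 in XX Controls, 4.39 in XY Controls, 2.25 in E13.5 ECKO and 0.296 in E13.5 Controls. Ier2 separated the stages: the 4 E11.5 groups, with medians of 42.3 to 62.7 CPM, overlapped, and lay apart from E13.5 Controls (3.61 CPM) and E13.5 ECKO (1.91 CPM).

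At E12.5 cells were scored one by one, and counts were summed per embryo for tests. The embryos of each group are called A and B. XX ECKO cells most often held Fos RNA: at 10 CPM or more it was present in 12 of 13 cells of embryo A (92.3%, 95% CI 64.0 to 99.8) and 7 of 13 of embryo B (53.8%, 25.1 to 80.8). In XX Controls it was present in 3 of 14 (21.4%, 4.66 to 50.8) and 3 of 16 cells (18.8%, 4.05 to 45.6). In XY embryos the shares were 10 of 18 (55.6%, 30.8 to 78.5) and 3 of 18 (16.7%, 3.58 to 41.4) in ECKO. In XY Controls they were 0 of 13, where 3 cells would be 23.1%, and 5 of 22 (22.7%, 7.82 to 45.4). Shares of XY ECKO and XY Control embryos therefore overlapped and those of XX embryos did not. The interval of XX ECKO embryo B nevertheless overlapped those of both XX Controls. Intervals are exact and cover the sampling of cells within an embryo only. How many of all genes had shares apart between groups was not counted. With 2 embryos a group an exact permutation test cannot go below p = 0.333, and shares were not tested.

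Jun was seen most often in XX ECKO embryo A, with 11 of 13 cells (84.6%, 54.6 to 98.1), while embryo B had 3 of 13 (23.1%, 5.04 to 53.8). It was present in 0 of 14 cells of XX Control A (where 3 cells would be 21.4%) and 0 of 16 of XX Control B (where 3 cells would be 18.8%). Among XY cells Jun was present in 4 of 18 and 3 of 18 in ECKO embryos and 1 of 13 and 3 of 22 in Controls. Egr1 was present in 5 of 13 cells (38.5%, 13.9 to 68.4) of each XX ECKO embryo, against 1 of 14 (7.14%) and 1 of 16 (6.25%) in XX Controls. In XY it was present in 2 of 18 cells (11.1%) of each ECKO embryo, against 0 of 13 and 1 of 22 in Controls. The shares of cells with any Fos count were 92.3% and 69.2% in XX ECKO embryos and 57.1% and 50% in XX Controls, and with each cell thinned to 50000 counts they were 92.3% and 53.8% in XX ECKO embryos and 21.4% and 18.8% in XX Controls.

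Ier2 was present in most cells of every embryo, and Dusp1 in most cells of each Control embryo but not of every ECKO embryo. In XX ECKO embryos A and B, Ier2 was found in 12 of 13 and 7 of 13 cells, and in XX Controls in 13 of 14 and 15 of 16. For XY ECKO embryos the numbers were 18 of 18 and 17 of 18, with 13 of 13 and 22 of 22 in XY Controls. Dusp1 was found in 10 of 13 and 5 of 13 cells of XX ECKO embryos, and in 11 of 14 and 13 of 16 of XX Controls. Its share in XY ECKO embryos was 16 of 18 and 9 of 18, with 12 of 13 and 19 of 22 in XY Controls. The median cell held 33.8 and 9.27 CPM of Dusp1 in XY ECKO embryos and 207 and 183 CPM in XY Controls, and 104 and 3.06 CPM in XX ECKO embryos and 375 and 167 CPM in XX Controls. Junb was found in 7 of 13 and 2 of 13 cells of XX ECKO embryos, with 4 of 14 and 3 of 16 in XX Controls. In XY embryos it was seen in 8 of 18 and 5 of 18 ECKO cells, with 5 of 13 and 8 of 22 in XY Controls. Fosb, Egr2, Atf3 and Zfp36 were present in 0 to 5 cells of an embryo.

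**Figure D5:**
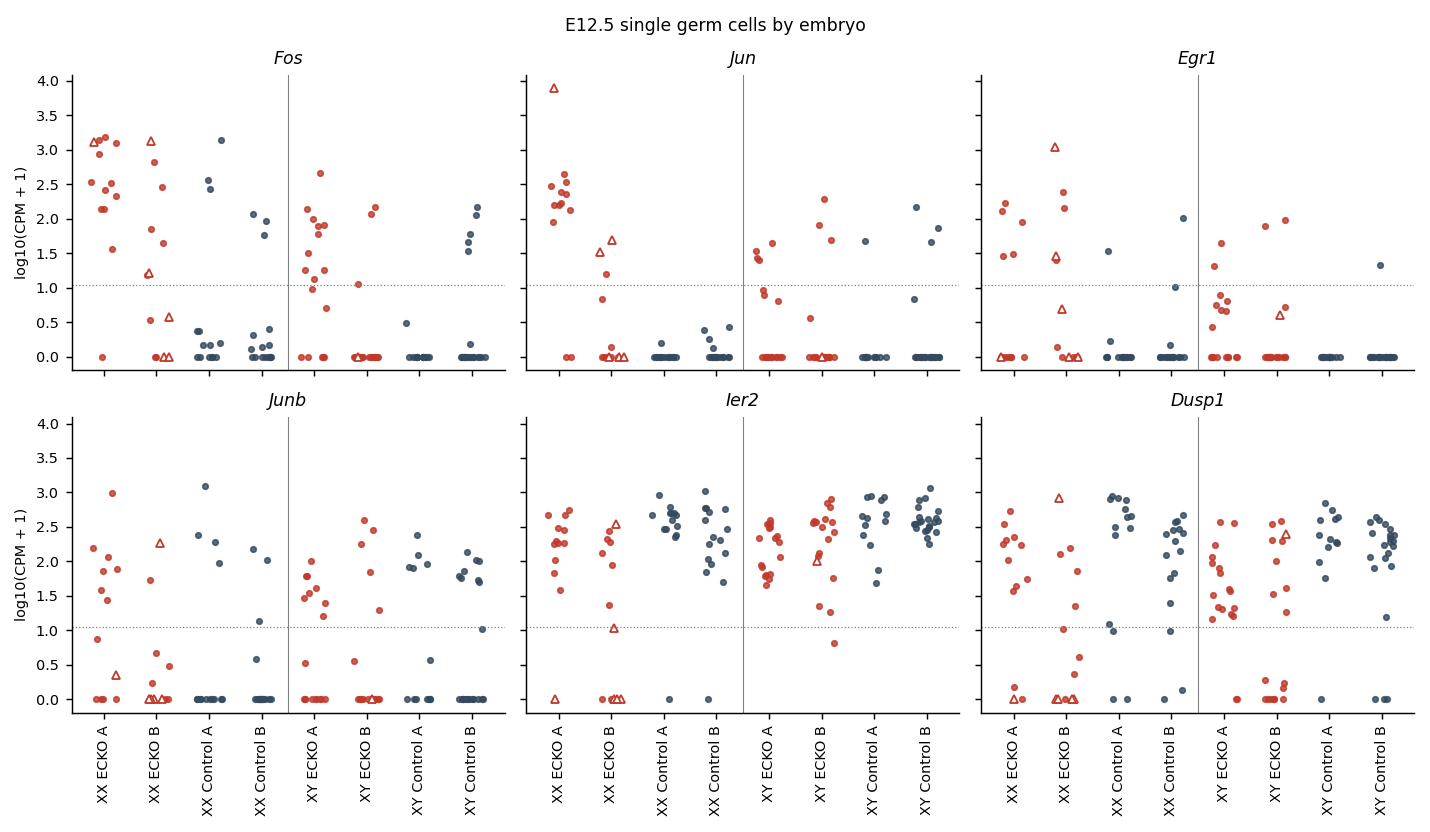
Level of 6 members in each kept E12.5 cell as log10(CPM + 1), by embryo (red ECKO, dark blue Control); points are cells, open triangles are the 7 cells under 500 CPM of summed germ cell markers, and the dotted line is 10 CPM. Fos and Jun fill most cells of XX ECKO embryo A, and Ier2 lies above the line in most cells of every embryo.

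In XX ECKO embryo A 12 of 13 cells had Fos, among them all 11 cells with Jun, all 7 with Junb and all 5 with Egr1, an overlap that the share with Fos alone largely sets. Its median cell held 5 members and the highest 8, against 2.5 and 2 members in the median cells of XX Controls A and B. In XX ECKO embryo B the median cell held 2 members.

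Summed per embryo, members moved both ways without a call. In XX 0 of 9 tested members were called, against 0.0215% of all genes called, in XY 0 of 9, against 0.00717%, and 1710 and 881 of 13956 genes had an unadjusted p under 0.05. Fos stood at 611 and 295.5 CPM in XX ECKO embryos A and B, against 104 and 15.1 CPM in XX Controls (log2 fold change 2.93, SE 1.45, adjusted p = 0.440). In XY it stood at 61.6 and 16.1 CPM in ECKO embryos, against 0.0738 and 18.9 CPM in Controls (2.02, SE 1.41, adjusted p = 0.800). Egr1 stood at 25.7 and 183 CPM in XX ECKO embryos against 2.49 and 5.07 CPM in XX Controls (4.79, SE 1.29, adjusted p = 0.191), and at 7.32 and 6.04 CPM in XY ECKO embryos against 0 and 0.793 CPM in XY Controls (3.97, SE 1.30, adjusted p = 0.679). Both ECKO embryos lay above both Controls for Egr1 in either sex, as did 23.3% of all genes in XX and 20.8% in XY. Jun stood at 404 and 7.95 CPM in XX ECKO embryos, against 0.0341 and 0.184 CPM, which are 1 and 5 counts, in XX Controls (10.83, SE 1.95, adjusted p = 0.0943), and 1 cell gave 58.4% of the counts of embryo A. That cell, described below, had under 500 CPM of summed germ cell markers.

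The other AP-1 members gave no common direction at E12.5. Junb stood at 96.0 and 30.7 CPM in XX ECKO embryos against 92.0 and 14.97 CPM in XX Controls (log2 fold change 0.25, SE 0.82, adjusted p = 0.951), and at 24.1 and 34.0 CPM in XY ECKO embryos against 53.9 and 37.5 CPM in XY Controls (-0.65, SE 0.82, adjusted p = 0.930). Jun in XY stood at 11.1 and 16.2 CPM in ECKO embryos against 3.69 and 16.6 CPM in Controls (0.42, SE 1.24), where the groups overlapped. Fosb stood at 3.48 and 7.17 CPM in XX ECKO embryos and had 0 counts in XX Controls, at least 92.1-fold higher by the same floor of 3 counts over a group (adjusted p = 0.363). Atf3 had 100 and 5 counts in XX ECKO embryos and 0 in each of the other 6 embryos, and was not tested. Egr2 stood at 7.07 and 1.14 CPM in XX ECKO embryos against 0 and 0.0735 CPM in XX Controls, and at 1.96 and 12.7 CPM in XY ECKO embryos against 0 and 0.347 CPM in XY Controls. Zfp36 stood at 0.786 and 11.03 CPM in XX ECKO embryos against 0 and 1.21 CPM in XX Controls, and at 1.05 and 2.36 CPM in XY ECKO embryos against 3.77 and 10.1 CPM in XY Controls.

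Calls at E12.5 depended on the test. DESeq2 called Jun (log2 fold change 10.95) and Egr1 (4.86, adjusted p = 0.00039) higher in XX ECKO embryos, and Egr1 higher (4.06, adjusted p = 0.0231) and Dusp1 lower (-2.14, adjusted p = 0.00357) in XY ECKO embryos. Of 13956 genes that passed the filter on low counts, DESeq2 called 910 in XX and 327 in XY. The edgeR fit of all 8 embryos called 3 and 1. With 1 embryo left out, edgeR called Jun in 7 of 8 fits in XX, the exception being that without XX ECKO embryo A, and Egr1 in 3 of 8. Over these fits the log2 fold change of Jun in XX lay between 6.13 (without XX ECKO embryo A, adjusted p = 0.142) and 12.34 (without XX Control embryo B), and that of Egr1 between 2.76 (without XX ECKO embryo B, adjusted p = 0.781) and 5.60 (without XX ECKO embryo A, adjusted p = 0.0471). Without XY Control embryo B the log2 fold change of Fos in XY was 8.96 (adjusted p = 0.0332), in a fit where the lone XY Control embryo, which had 1 Fos count, is assumed to vary like the others.

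Dusp1 and Ier2 stood lower in ECKO embryos of both sexes at E12.5, also without a call. Dusp1 was at 158 and 133 CPM in XX ECKO embryos against 398 and 179 CPM in XX Controls (log2 fold change -0.99, SE 0.49, adjusted p = 0.440). In XY it was at 74.2 and 48.6 CPM in ECKO embryos against 322 and 229 CPM in Controls (-2.17, SE 0.51, adjusted p = 0.503). Ier2 was at 239 and 146 CPM in XX ECKO embryos against 416 and 321 CPM in XX Controls (-0.94, SE 0.43, adjusted p = 0.411), and at 191 and 256 CPM in XY ECKO embryos against 466.4 and 476 CPM in XY Controls (-1.08, SE 0.43, adjusted p = 0.738). In XX both ECKO embryos lay below both Controls for each gene, as for 17.9% of all genes. For XY that share of all genes is not given here. The 16 ERK phosphatases and feedback genes had a median log2 fold change of -1.77 in XX, against 0.13 over all genes, and -0.58 in XY, against 0.10, with 0 called. For a difference between the sexes in the change at E12.5, edgeR with all 8 embryos called 0 of 13956 genes, with 681 at an unadjusted p under 0.05, and DESeq2 called 135, Jun among them. Jun, the more positive in XX by 10.41 (adjusted p = 0.741), was also called by edgeR without XX Control embryo B (11.91, adjusted p = 0.0237), without XX ECKO embryo B (11.39, adjusted p = 0.00192), without XY Control embryo A (11.12, adjusted p = 0.0085) and with no filter on low counts.

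Cells with few germ cell markers were found in ECKO embryos. The 12 germ cell markers summed to 2279 and 1323 CPM in XX ECKO embryos A and B against 3576 and 3480 CPM in XX Controls, and to 1812 and 2513 CPM in XY ECKO embryos against 3250 and 2763 CPM in XY Controls. Of the kept cells, 1 of XX ECKO embryo A, 5 of XX ECKO embryo B, 1 of XY ECKO embryo B and 0 Control cells had under 500 CPM of them. The 15 supporting cell markers summed to 67.3 and 152.6 CPM in XX ECKO embryos A and B, with 4 and 3 of them at 0, against 45.3 and 21.5 CPM in XX Controls, with 10 and 12 at 0. In XY they summed to 49.2 and 89.8 CPM in ECKO embryos against 117.7 and 70.2 CPM in Controls. The 15 interstitial markers summed to 3.66 and 299.7 CPM in XX ECKO embryos against 13.6 and 6.72 CPM in XX Controls, and to 10.9 and 22.2 CPM in XY ECKO embryos against 0.494 and 1.53 CPM in XY Controls. Cell 14 of XX ECKO embryo B had 168 CPM of germ cell, 904 of supporting cell and 2421 of interstitial markers, and it gave 68.7% of that embryo's Egr1 counts and 70.5% of its Dusp1 counts. Cell 8 of XX ECKO embryo A, with 107 CPM of germ cell markers and no supporting or interstitial marker, held 7915 CPM of Jun and gave most of that embryo's Jun counts.

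Without these 7 cells Fos stood at 590 and 183 CPM in XX ECKO embryos against 105 and 15.4 CPM in XX Controls. Jun stood at 173 and 2.96 CPM in XX ECKO embryos against 0.0344 and 0.187 CPM in XX Controls (log2 fold change 9.59, adjusted p = 0.127). Egr1 stood at 26.5 and 73.0 CPM in XX ECKO embryos against 2.51 and 5.16 CPM in XX Controls (3.70, adjusted p = 0.347). Dusp1 stood at 163 and 50.5 CPM in XX ECKO embryos against 400 and 182 CPM in XX Controls. Directions were as with all cells for Fos, Jun, Egr1, Ier2 and Dusp1 in XX, and 0 members were called. Heat shock genes summed to 16323 and 26336 CPM in XX ECKO embryos A and B against 16286 and 14821 CPM in XX Controls, and to 15407 and 16318 CPM in XY ECKO embryos against 11708 and 13041 CPM in XY Controls, with 0 of 13 called in either sex. The part of heat shock and of supporting and interstitial cell genes in the member values was not tested.

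With group means removed, some members varied together over the 22 bulk libraries, a description of libraries that share depth and scaling. Pearson's r was 0.76 between Fos and Egr1, 0.76 between Egr1 and Zfp36, 0.65 between Fos and Fosb, and 0.54 between Jun and Egr1. Dusp1 ran against them, with r of -0.77 with Zfp36 and -0.55 with Egr1. Within the E13.5 ECKO group Dusp1 ranged from 7.83 to 98.5 CPM, Zfp36 from 1.07 to 33.0 CPM and Egr1 from 0.835 to 71.0 CPM. There ECKO 1 was highest for Dusp1 and lowest for Zfp36 and Egr1, and r without that group was not computed. Junb had an r between -0.15 and 0.15 with each other member. Among 6770 candidate genes, those most like the mean of the 6 members tested in all 3 tables were Nck2 (r = 0.85) and Nck1 (0.83), which encode SH2 and SH3 adaptor proteins, the ubiquitin ligase gene Rnf19a (0.82), Synj2bp (0.79), the mitochondrial peptidase gene Pmpcb (0.78), Fam73a (0.78), Fam53a (0.78) and the proton pump gene Atp6v0b (0.78). None of these 8 is on a list used here.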

How the data were processed

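Per the submitters' processing notes, reads were processed with HISAT2 and edgeR and the build mm9; for the counting program, its strand setting and the annotation, the sources used here give nothing. The deposited files are counts per gene symbol, 3 bulk tables and 2 E12.5 single-cell tables, as the authors made them. Per the labels' protocols, bulk RNA was amplified with the Ovation kit and single cells with Smart-seq2, without molecular identifiers, so intervals and floors cover counting error only. The 8 bisulfite samples were not analysed here.

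Bulk tables were each fitted with edgeR 4.0.16 (quasi-likelihood F test, filterByExpr, TMM) in R 4.3.3, and p-values were adjusted over all genes tested by Benjamini-Hochberg; a call is an adjusted p under 0.05. CPM use each fit's TMM-scaled library sizes; sums over marker lists use total counts alone. Stage and sex differences came from joint fits. Of 192 cells, those with at least 50000 counts and 1500 genes were kept; the 65 left out had a median of 1717 counts. Counts of kept cells were added up within each embryo, and 1 fit held the 8 sums. Embryos are lettered in column order and are not tied to the embryo numbers of the labels. 1 kept XX cell is titled ECKO but labelled wild type, and it was kept with its title's group. No doublet caller was run. Presence in a cell means 10 CPM or above. Shares carry 95% Clopper-Pearson intervals, and floors are 3 counts, or 3 cells where a share is 0. Shares were compared after thinning to 50000 counts per cell.

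DESeq2 1.42.0, no filter, library size alone, a replicate block, all 22 libraries together and leaving out each library were alternatives. The members and gene lists were chosen with earlier results of these data known. All 10 members are named; other genes are named where their list's call passed, and the 8 most alike genes by correlation. Same-numbered replicates did not deviate together (r of -0.14 to 0.17), so numbers were not taken as pairs. Fits were tested on simulated data, and each pair of replicate libraries differed by more than sampling noise (chi-square per degree of freedom 4.49 or above).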

Additional observations from a re-analysis of the deposited data

Results flagged for a closer look

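Among 38 sets of 4 libraries, each a gene in a group, 5 held a library far from the other 3, by a test of the gap over the range. Its nominal rate of about 1 in 20 does not hold for values near 0, where a few reads among zeros always pass. Fosb in E11.5 XX ECKO 4 stood at 48.7 CPM, against 4.41 to 8.93 CPM in the other XX ECKO libraries, and the same library had the interstitial sum of 1428 CPM. Egr2 in E13.5 XY Control 3 stood at 17.3 CPM, against 0 to 1.68 CPM in the other Controls. Atf3 in E11.5 XY ECKO 1 stood at 0.805 CPM, which is 10 counts, against 0 to 0.0993 CPM in the other XY ECKO libraries. The other 2 rest on single reads or few: Atf3 in E11.5 XY Control 1 at 0.098 CPM (1 count) and Fosb in E13.5 XY Control 2 at 0.16 CPM (2 counts), with the other Controls at 0.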

How the results depend on the processing

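The number of genes called moved with the test, and the cause was not tested. At E11.5 XY the 266 calls became 771 with DESeq2, 457 with no filter on low counts, 151 with the replicate block, 23 with all 22 libraries in 1 fit (0 members) and 64 to 333 with 1 library left out. At E11.5 XX the 19 calls became 315 with DESeq2, 217 with no filter (1 member), 37 with the block, 9 with all 22 libraries and 0 to 26 with 1 left out. At E13.5 XY the 604 calls became 1702 with DESeq2 (1 member), 1268 with no filter (1 member), 68 with the block, 2987 with all 22 libraries (3 members) and 94 to 2141 with 1 left out (0 to 2 members). At E12.5 XX the 3 calls became 910 with DESeq2 (2 members), 566 with no filter (3 members), 6 with no filter on cells, 5 without the cells low in germ cell markers, a setting chosen after seeing the data, and 46 to 241 with 1 embryo left out (1 to 2 members). At E12.5 XY the 1 call became 327 with DESeq2 (2 members), 150 with no filter (3 members) and 3 to 53 with 1 left out (0 to 1 members). The E12.5 sex difference had 135 calls with DESeq2, 84 with no filter (1 member each) and 0 to 37 with 1 left out (0 to 1 members). The E11.5 sex difference had 1 with DESeq2 and 0 to 1 with 1 left out, and the 173 calls of the stage difference in ECKO effect became 831 with DESeq2 and 30 to 1267 with 1 left out (0 to 1 members). With the replicate block Fos (adjusted p = 0.00707) and Egr1 (0.00174) were still called at E11.5 XY. No paired analysis was possible because, at E12.5, the columns do not tie embryos to the labels' numbers, and of their embryo names only those of XX ECKO A and XX Control A begin alike, with what that marks not stated. Log2 fold changes of members without a call turned sign in these cases: at E11.5 XY Ier2 with the block (-0.0051) and, without the library of highest interstitial sum, Ier2 (-0.035) and Junb (-0.014); at E11.5 XX Fosb with the block (-0.056) and without that library Fosb (-0.64) and Fos (-0.10); at E13.5 Zfp36 with the block (-0.25); and in the E12.5 sex difference Egr1 without the low cells (-0.30). With 1 library left out they ranged from -0.014 to 0.75 for Junb and -0.16 to 0.18 for Ier2 at E11.5 XY; from -0.35 to 1.76 for Fos, -0.64 to 1.66 for Fosb, -0.68 to 1.02 for Junb and -0.061 to 0.44 for Ier2 at E11.5 XX; from -0.062 to 1.48 for Jun, -3.43 to 0.65 for Egr2 and -0.20 to 0.95 for Zfp36 at E13.5; and from -0.79 to 2.08 for Junb at E12.5 XX. In the E12.5 sex difference Fos ranged from -6.02 to 2.88 and Egr1 from -5.44 to 1.70, in the E11.5 sex difference Egr1 from -0.75 to 1.28, in the stage difference in ECKO effect Fos from -0.93 to 0.72 and Egr1 from -0.67 to 1.08, and between stages in Controls Egr2 from -1.72 to 1.05 and Dusp1 from -0.087 to 0.30. Dusp1 in the stage difference in ECKO effect was -0.99, and without E13.5 ECKO 1 it was -2.57 (adjusted p = 0.00204). In E11.5 XX Control 1 depth limits low genes, since 3 counts there are 7.55 CPM.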
